A study of Arabidopsis thaliana with 6 samples.

Results

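*BOP1* (AT3G57130) and *BOP2* (AT2G41370) are paralogous genes of *Arabidopsis thaliana*, and are 2 of the 629 genes that the authors listed as targets of the transcription factor ATH1. They were taken by locus, with every peak of the 6 peak tables that overlapped the window listed for either gene. These windows held 7 of the 5483 deposited peaks, with 3, 2 and 2 in ATH1-GFP replicates 1, 2 and 3, and none in the wild-type libraries. The libraries came from chromatin immunoprecipitation followed by sequencing (ChIP-seq), in which chromatin is fixed, sheared and precipitated with an antibody, and the recovered DNA is sequenced. There were 3 biological replicates of *ath1-3*, a loss-of-function mutant, carrying *pATH1:ATH1-GFP*, that is, ATH1 fused to green fluorescent protein and driven by its own promoter. The other 3 were of wild-type plants without GFP, and all 6 were precipitated with magnetic beads against GFP from seedling shoots stripped of leaves and roots. The transgenic plants were of a single line, chosen for full complementation and a single copy of the transgene, so line and genotype cannot be told apart. The labels give Landsberg *erecta* as the wild type, 2 weeks of growth and 16 h of light, whereas the series text gives Columbia and the methods give Columbia, short days, a longer growth and more tissue per replicate. The paper takes Columbia as the wild type that corresponds to the mutant. If the labels hold, accession therefore differed between the groups along with the transgene, and the contrast cannot separate them. Whether accession had a part in the absence of wild-type peaks from any region was not tested.

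BOP proteins carry a BTB/POZ domain and ankyrin repeats, as do the NPR proteins of salicylic acid signaling. They do not bind DNA by themselves but act as coactivators with TGA bZIP transcription factors, and also as adaptors that bring proteins such as PIF4 to a CUL3 ubiquitin ligase. *BOP1* and *BOP2* are expressed at the base of leaves and at organ boundaries, where they act redundantly to keep blade tissue off the petiole and to allow floral organs to abscise. ATH1 is a BELL-type homeodomain protein of the TALE class, which pairs with KNOX proteins and is needed at the same boundaries. The oligonucleotides with which the study assayed ATH1-GFP at both loci by ChIP-qPCR are shown here, 5′ to 3′, because they mark the ends of the DNA amplified in that assay. Their positions relative to the peaks were not analysed here.
BOP1-F: cgcacgtgtgttcctgactg
BOP1-R: tattcccatcggatggaccg
BOP2-F: caaacgtcaaatcgaaccacttcc
BOP2-R: ctctctttgtttggtaattttgggg

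After removal of duplicates, the ATH1-GFP libraries held 10194418 to 15584829 tags (mapped reads) and the wild-type libraries 3450182 to 13518524. Peaks were called by the authors within each library, without a control library. A shared region is a stretch covered by a peak of each ATH1-GFP library at a false-discovery rate below 0.001, and it is called free where no wild-type peak at that threshold overlaps it. Of 721 shared regions, 309 (42.9%) were free.

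Each gene had a single free region in its listed window. The window of *BOP1* on chromosome 3 runs from 21144558 to 21150422 (TAIR10), and the region from 21144659 to 21145003, a length of 345 nt that begins 101 nt inside the lower edge. The window of *BOP2* on chromosome 2 runs from 17236279 to 17243440, and its region from 17242696 to 17243061, a length of 366 nt that ends 379 nt inside the upper edge. *BOP1* is transcribed toward higher and *BOP2* toward lower coordinates, so both regions lay at the upstream end of the window. According to the header of the authors' table, a window begins 3000 nt upstream of the coding sequence. If this flank is complete, the mean summit (the position of highest tag coverage) lay 2738 nt upstream of the coding sequence of *BOP1* and 2436 nt upstream of that of *BOP2*. Less both flanks, the windows leave 1365 nt for *BOP1* and 2662 nt for *BOP2*, and whether a flank was shortened at *BOP1* was not tested. Neither region lay in the window of another listed gene, which was the case for 46.2% of the 288 free regions that fell in any listed window. Both genes were listed, and their regions called, from the same peaks, so these facts are a description and were not tested. Of the 629 listed genes, 436 had a free region by the definition used here.

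**Figure D1:**
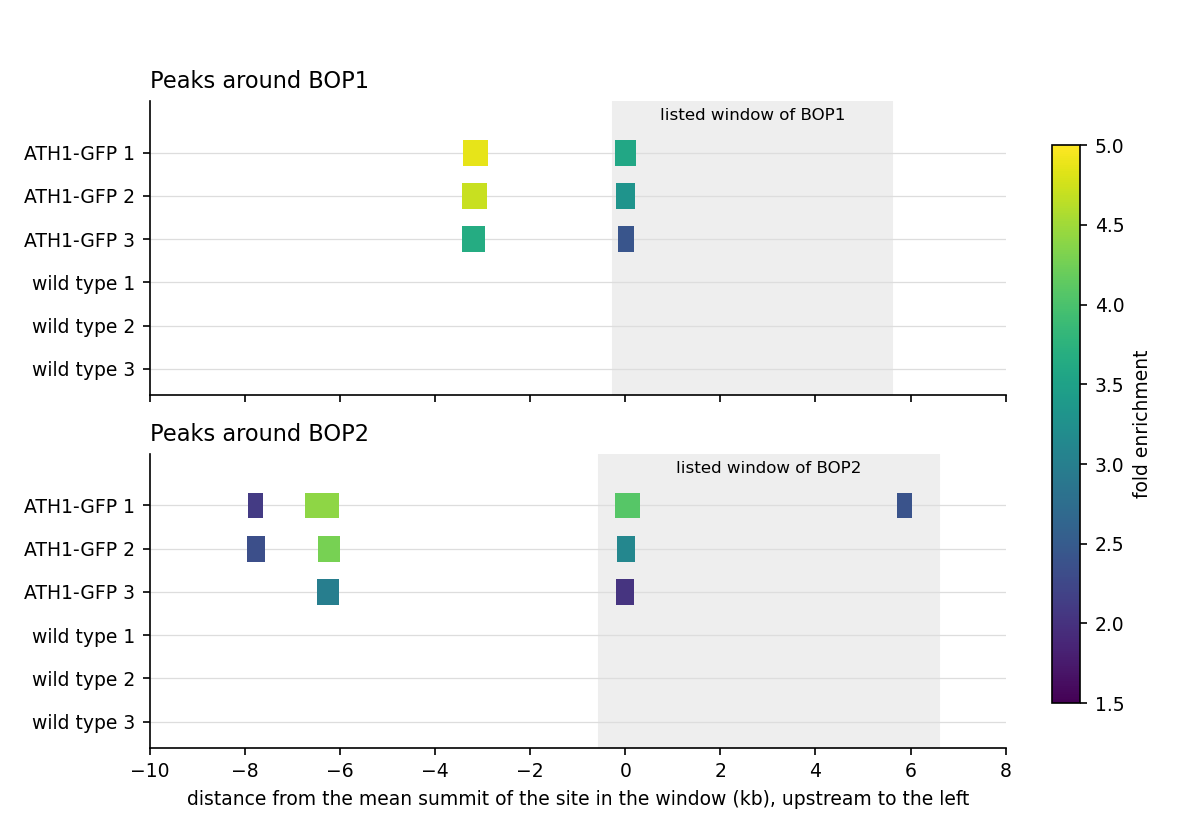
Deposited peaks around *BOP1* (upper panel) and *BOP2* (lower panel) in the 6 libraries (rows), by distance in kb from the mean summit of the site in the listed window (gray), with upstream to the left and color giving fold enrichment. Every ATH1-GFP library has a peak at 0 and another farther upstream, at about 3.17 kb for *BOP1* and 6.22 kb for *BOP2*, and the wild-type rows are empty.

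Summits were placed almost identically in the replicates. At *BOP1* they lay at 21144822, 21144826 and 21144811 in ATH1-GFP replicates 1, 2 and 3, a range of 15 nt. At *BOP2* they lay at 17242866, 17242874 and 17242888, a range of 22 nt. The median range over the 309 free regions was 84 nt, so the summits of both genes were among the closest, at the percentiles 5.83 and 10.7. Regions of all strengths enter this median. The regions of *KNAT6*, *LSH4* and *ATH1*, close to both genes in mean fold enrichment, had ranges of 39, 52 and 96 nt. The peaks themselves were 436, 395 and 345 nt long at *BOP1* and 524, 399 and 369 nt long at *BOP2*, and in both genes the shortest was that of replicate 3. The shared region of *BOP1* was the whole peak of that replicate, and that of *BOP2* was the peak of replicate 3 less its last bases.

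**Figure D2:**
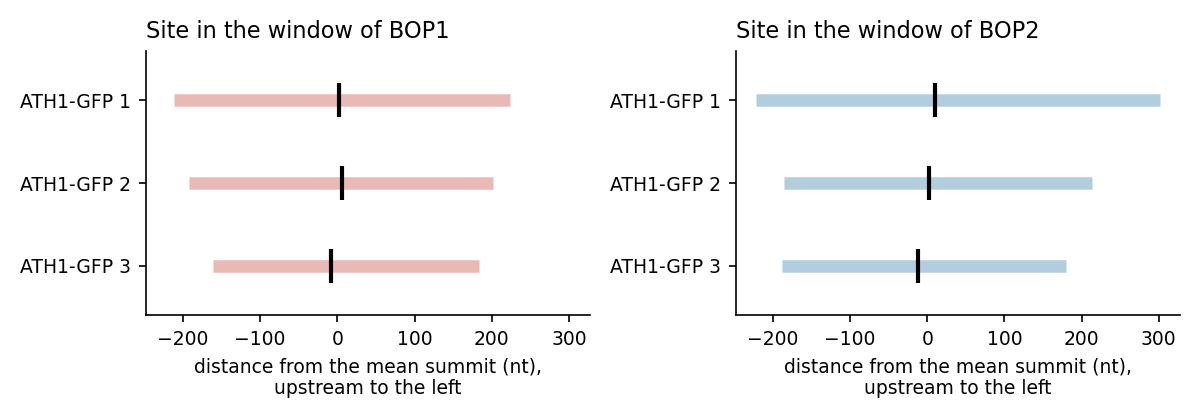
Extent of the peak (bar) and position of the summit (black mark) in each ATH1-GFP library at the site in the window of *BOP1* (left) and *BOP2* (right), in nt from the mean summit, with upstream to the left. The summits span 15 nt at *BOP1* and 22 nt at *BOP2*, within peaks of 345 to 524 nt.

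Fold enrichment is the ratio, given by the authors' peak caller, of the tags piled up at the summit to the background of the same library. It reflects the share of cells in which a site is bound, the occupancy in each and properties of the library as a whole, which cannot be told apart here. In replicates 1, 2 and 3 of ATH1-GFP, *BOP1* reached 3.59, 3.31 and 2.42, with a mean of 3.10 ± 0.611 (SD, n = 3). *BOP2* reached 4.07, 3.12 and 2.02, with a mean of 3.07 ± 1.03 (SD, n = 3). The ranges of the genes overlapped. *BOP2* was the higher in replicate 1, and *BOP1* the higher in replicates 2 and 3. The difference of *BOP1* less *BOP2* was -0.49, 0.195 and 0.397, with a mean of 0.0347 ± 0.463 (SD, n = 3), far smaller than its spread (exact permutation by flipping signs, two-sided, *P* = 1, where 3 libraries cannot give less than 0.25). Without replicate 2 or without replicate 3 the mean difference changed sign, to -0.045 and -0.146, and without replicate 1 it was 0.296. Among the free regions, ordered by mean fold enrichment from the highest, *BOP1* was 45th and *BOP2* 47th of 309, against a median of 2.29.

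The pileup, which counts the extended tags that cover the summit, was 143, 120 and 127 at *BOP1* and 145, 108 and 106 at *BOP2*. The genes were within 2 tags of each other in replicate 1, whereas *BOP1* had 12 and 21 more in replicates 2 and 3. The mean difference was 10.3 ± 11.6 tags (SD, n = 3; exact sign-flip permutation test, *P* = 0.5). The −log10 q, which grows with both depth and enrichment, was 33.8, 25.2 and 15.2 at *BOP1* and 40.4, 20.6 and 7.96 at *BOP2*. Its mean difference was 1.74 ± 7.31 (SD, n = 3; exact sign-flip permutation test, *P* = 0.75). Adjusted over the 3 measures, each *P* was 1.

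In replicate 1 the pileups were nearly equal while the fold enrichments were not, and the backgrounds differed. In these tables the fold enrichment equals the pileup plus 1, divided by the background plus 1, and the lowest background so recovered in a library matched the genome-wide value of tags, extension and genome size. At *BOP2* the background was the genome-wide value in all 3 libraries, 34.8, 34.0 and 51.9 tags. At *BOP1* it was 39.2 and 35.6 in replicates 1 and 2, that is 1.12 and 1.05 times the genome-wide value, and equal to it in replicate 3. Set against the genome-wide value instead, the enrichment of *BOP1* was 4.02, 3.46 and 2.42, and its mean difference to *BOP2* was 0.228 ± 0.247 (SD, n = 3; exact sign-flip permutation test, *P* = 0.5). This alternative was added after the values were seen.

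**Figure D3:**
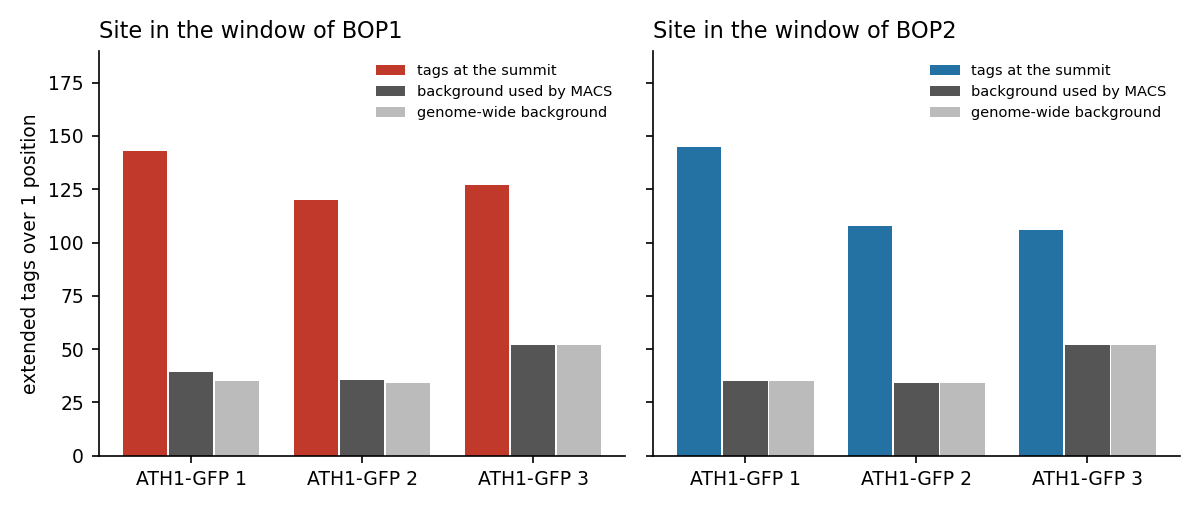
Extended tags over the summit (colored bars), the background recovered from the fold enrichment (dark gray) and the genome-wide background (light gray) in the 3 ATH1-GFP libraries, at the site in the window of *BOP1* (left) and *BOP2* (right). In replicate 1 the summits hold 143 and 145 tags, over a background of 39.2 at *BOP1* and 34.8 at *BOP2*.

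The genes differed more in how the replicates were spread. Replicate 3 was the lowest at both, as at 91.3% of the free regions. The fold enrichment in replicate 3 was 0.674 times that in replicate 1 at *BOP1* and 0.496 times at *BOP2*, against a median ratio of 0.770. Weak regions, which weigh on this median, had little room for a low ratio. Peaks called over the genome-wide background in replicate 3 began at 1.66. The regions ranked just above and just below *BOP1* by mean, those of *ATH1* and of the KNOX gene *KNAT6*, had ratios of 0.808 and 0.682. The transgene also carries *ATH1* sequence, and its part in the ratio at *ATH1* was not tested. The ratio of *BOP2* was the lowest of the 309 free regions, while 23.6% of them had a ratio no higher than that of *BOP1*. The coefficient of variation was 33.5% at *BOP2*, the highest of the 309, and 19.7% at *BOP1*, with a median of 14.9%. The value of *BOP2* within its own library went from the percentile 96.1 of the peaks below a false-discovery rate of 0.001 in replicate 1 to 88.8 in replicate 2 and 64.7 in replicate 3, and that of *BOP1* from 93.8 to 91.6 and 85.3. The ratios were singled out after the values were seen and were not tested.

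**Figure D4:**
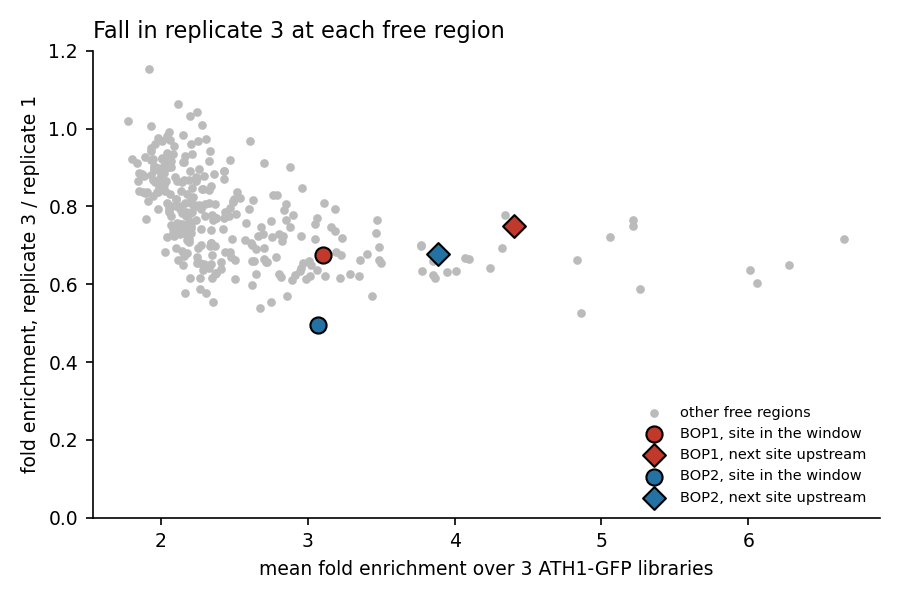
Ratio of the fold enrichment in ATH1-GFP replicate 3 to that in replicate 1 (vertical axis) against the mean over the 3 libraries (horizontal axis), for each of the 309 free regions (gray), with the sites in the windows of *BOP1* and *BOP2* (circles) and the next free regions upstream (diamonds) in color. The circle of *BOP2*, at 0.496, is the lowest point.

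Farther upstream, outside the listed windows, each gene was followed by a stronger site that the authors' table gives to the next listed gene. Upstream of *BOP1*, a free region of 478 nt from 21141400 to 21141877 lay 2681 nt beyond the window edge and in the window of AT3G57120, annotated in the table as a protein kinase. Its summits were 3173 nt on average from those of the site in the window. There, ATH1-GFP replicates 1, 2 and 3 had fold enrichments of 4.87, 4.70 and 3.65, with a mean of 4.41 ± 0.661 (SD, n = 3), on 200, 177 and 200 tags, and it was the 11th highest of the 309 free regions. It exceeded the site in the window of *BOP1* by 1.28, 1.39 and 1.23, a mean of 1.30 ± 0.081 (SD, n = 3; higher in 3 of 3 libraries). This excess was much larger than its spread between libraries, but the comparison was chosen after the values were seen and is a description with no test.

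Upstream of *BOP2*, a free region of 438 nt from 17248907 to 17249344 lay 5467 nt beyond the window edge and in the window of AT2G41380, annotated as a methyltransferase. Its summits at 17249100, 17249088 and 17249097 were 6219 nt on average from those of the site in the window. The fold enrichment there was 4.40, 4.28 and 2.98 (mean 3.89 ± 0.785, SD, n = 3), the 19th highest, on 158, 149 and 157 tags. It exceeded the site in the window of *BOP2* by 0.327, 1.16 and 0.963, a mean of 0.818 ± 0.437 (SD, n = 3; higher in 3 of 3 libraries). This comparison too was chosen after the values were seen and carries no test. At this region replicate 3 stood at 0.678 times replicate 1, so the low ratio at the site in the window of *BOP2* was not shared by its neighbor. In the RefSeq table (TAIR10.1), no gene comes between AT3G57120 and *BOP1*. Between *BOP2* and AT2G41380 the table has AT2G41375 and the long noncoding RNA gene AT2G09255. These regions were noticed in the data, and which gene they act on was not tested. Another free region lay within 10 kb of both *BOP* sites, as for 15.5% of all free regions.

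**Figure D5:**
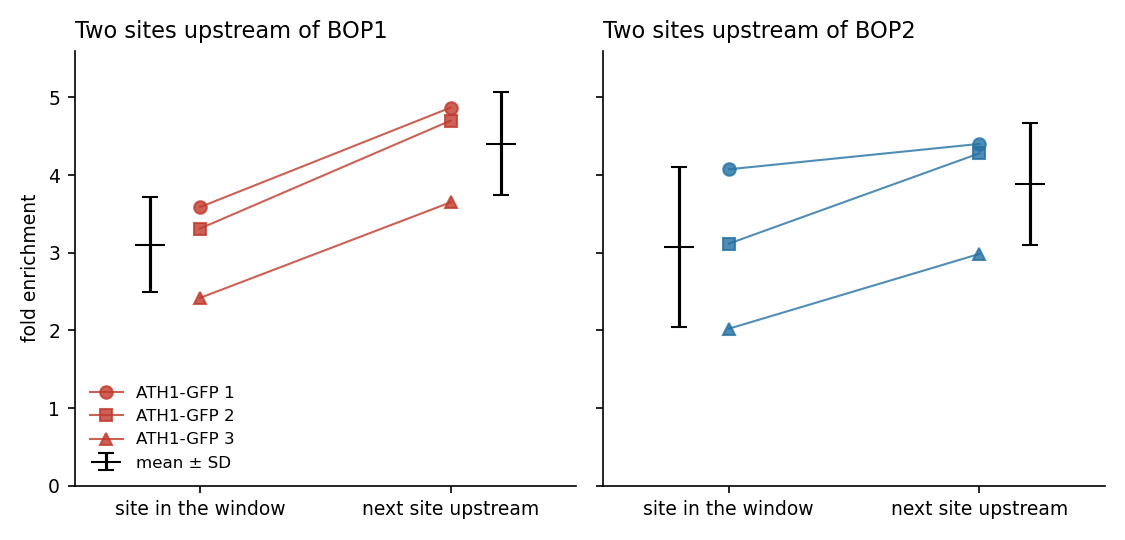
Fold enrichment in each ATH1-GFP library (colored symbols joined by lines) at the site in the listed window and at the next free region upstream, for *BOP1* (left) and *BOP2* (right), with the mean and SD over 3 libraries in black. Every line rises toward the upstream site, by 1.23 to 1.39 at *BOP1* and by 0.327 to 1.16 at *BOP2*.

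The windows held a single extra peak, that is, a peak apart from the shared site. It was found at *BOP2* in ATH1-GFP replicate 1 from 17236853 to 17237171, at the downstream end of the window, with a fold enrichment of 2.40, 85 tags and −log10 q of 9.93. The window of *BOP1* had none. The number of extra peaks was therefore 1, 0 and 0 in ATH1-GFP and 0 in each wild-type library (mean 0.333 ± 0.577 against 0, SD, n = 3 and 3; two-sided exact permutation test, *P* = 1). With a single extra peak, every split of the libraries gives a difference of the same size. This *P* was therefore fixed in advance, and the test cannot decide whether the groups differ. Widened by 10 kb on each side, a distance chosen after the values were seen, the windows held 4, 3 and 2 extra peaks in ATH1-GFP replicates 1, 2 and 3 and none in the wild type. These counts include the 2 upstream free regions, which by definition have a peak in each ATH1-GFP library and none in the wild type, so they are a description with no test.

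In the wild type, the peak nearest to the site of *BOP1* was 230253, 83772 and 83241 nt away in replicates 1, 2 and 3, and the peak nearest to that of *BOP2* 26365, 19010 and 26235 nt away. Depth set what could be called there. Over the genome-wide background, the weakest wild-type peaks below a false-discovery rate of 0.001 had a fold enrichment of 2.56, 1.71 and 2.06 in replicates 1, 2 and 3. The mean values of both *BOP* sites were above all 3 limits. Their values in ATH1-GFP replicate 3, 2.42 and 2.02, were below the limit of wild-type replicate 1, and that of *BOP2* was also below that of replicate 3.

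The *BOP* sites were next compared with genes of the list that act at the same place in the shoot. The class I KNOX genes had a fold enrichment of 3.85 ± 0.885 (*KNAT2*) and 3.09 ± 0.581 (*KNAT6*; SD, n = 3 libraries), and their mean exceeded that of *BOP1* and *BOP2* in 3 of 3 libraries. The *BOP* mean less the KNOX mean was -0.31, -0.36 and -0.47 (mean -0.38 ± 0.0818, SD, n = 3; exact sign-flip permutation test, *P* = 0.25, adjusted over 2 comparisons 0.25). The mean of *KNAT6*, at 3.65, 3.12 and 2.49 in the 3 libraries, lay between those of *BOP1* and *BOP2*, and that of *KNAT2* above both. Among the organ boundary genes, *CUC1*, for a NAC transcription factor, had 5.26 ± 1.42, *LSH4*, for a nuclear protein, 3.05 ± 0.545, and *LOB*, for a transcription factor of the leaf base, 2.88 ± 0.293 (SD, n = 3). The *BOP* mean less theirs was -0.31, -0.96 and -0.66 (mean -0.64 ± 0.327, SD, n = 3; exact sign-flip permutation test, *P* = 0.25, adjusted 0.25), and of the 3 genes only *CUC1* had a higher mean than both *BOP* genes. Unlike the *BOP* sites, the regions of *CUC1* and *LSH4* each lay in the window of another listed gene too.

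The genes most like *BOP1* in their values over the 3 ATH1-GFP libraries, of 435 others with a free region, were *LSH4* and *XBAT35*, an ankyrin-repeat ubiquitin ligase gene that shares its region, and then *OLEO4*, an oleosin gene. The root mean square difference in log2 fold enrichment was 0.051 for the first 2 and 0.057 for *OLEO4*. The genes most like *BOP2* were *SMZ*, for an AP2-type repressor of flowering, and *TON1A*, for a protein that organizes cortical microtubules, which share a region (0.13), and *RLP29*, for a receptor-like protein (0.13). Even these were farther from *BOP2* than any of the first 3 was from *BOP1*. *BOP2* was 67th in likeness to *BOP1* (0.19), and *BOP1* 21st to *BOP2*.

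Genes related to BOP proteins or working with them were looked up in the authors' list, which holds 1.64% of the 37899 genes of the RefSeq table. At that share, a set of 4 or 12 genes would usually have no listed member, so absences are no result about these genes. None of the 4 other BTB-ankyrin genes *NPR1*, *NPR2*, *NPR3* and *NPR4* was listed, and none of 12 genes for partners, the TGA factors *TGA1* to *TGA7*, *TGA9*, *TGA10* and *PAN*, and the ligase subunits *CUL3A* and *CUL3B*. Of 5 *PIF* genes, *PIF4*, whose protein BOP proteins bind, was listed, with a fold enrichment of 2.25 ± 0.422 (SD, n = 3). Of 12 genes in a mixed list of TALE homeobox, leaf base and floral meristem genes, 6 were listed, *ATH1*, *KNAT1*, *KNAT2*, *KNAT6*, *LOB* and *AP1*. *KNAT1*, a KNOX gene that promotes internode growth, had 2.99, 3.20 and 1.96 (mean 2.72 ± 0.661, SD, n = 3), and *ATH1* 3.27, 3.42 and 2.64 (mean 3.11 ± 0.412, SD, n = 3), next to *BOP1* in the order of free regions. The regions of *KNAT1* and *ATH1* each lay in the window of another listed gene too. The transgene carries promoter and coding sequence of *ATH1*, which the wild type has only at the locus itself. Whether tags from the transgene added to the value at *ATH1* was not tested. At *AP1*, a floral meristem identity gene, the shared region had 5.77 ± 1.14 (SD, n = 3), and it overlapped a peak of 1 wild-type library. The lists include genes that the study itself takes up from its table, *KNAT2*, *KNAT6* and *PIF4* among them, so their presence there is not independent evidence.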

How the data were processed

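ChIP DNA of the 6 libraries was sequenced by the authors as single-end reads of 50 bp and mapped to TAIR10 with Bowtie2 (version not given in the sources used here). Per the file headers, peaks were called in each library with MACS 2.0.10.20130915, without a control, with tags extended to 300 nt, 1 tag kept per position, a q cutoff of 0.05 and the genome size set to 90000000. The deposited fold enrichment is a ratio by MACS, the deposited −log10 p and −log10 q were obtained by the authors from MACS over that background too, and the deposited pileup is a signal in tags that is not scaled for depth. The deposited target table gives the authors' averages, which were not used, the number of libraries with a peak and the windows. By its header, the windows reach 3000 nt upstream and 1500 nt downstream of the coding sequence, but many are too short for complete flanks. The narrowPeak lists held the same peaks as the tables.

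Peaks with −log10 q above 3 were intersected (at least 1 nt). A gene's value is that of the peaks of its strongest free region. Overlaps were checked with bedtools 2.31.1 and tested on simulated data, where 200 of 200 shared and 120 of 120 free regions were recovered. Python 3.11.15 was used with numpy 2.4.6, pandas 2.3.3 and matplotlib 3.10.9. Symbols and gene order were taken from the RefSeq table of TAIR10.1, which held 620 of the 629 listed loci. The files give no strand, and the direction of transcription of both genes is background knowledge. Differences within libraries were tested by exact sign-flip permutation and counts between groups by exact permutation. Adjustment was by the method of Benjamini and Hochberg. No counts exist outside peaks, so no counting interval was computed. The genes named are *BOP1* and *BOP2*, the comparators, the 3 nearest genes in pattern for each, the neighbors at the upstream regions, and the listed members of 4 gene lists. The members and lists were chosen with earlier results of these data known. A planned search for motifs in the sites was not run, since no genome was used here.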

Additional observations from a re-analysis of the deposited data

Results flagged for a closer look

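A further peak upstream of *BOP2* lies outside the listed windows and entered only the counts in windows widened by 10000 nt. It was called in ATH1-GFP replicates 1 and 2, with summits at 17250654 and 17250653 and fold enrichments of 2.11 and 2.34 (mean 2.23), on 75 and 82 tags. ATH1-GFP replicate 3 and all wild-type libraries had no peak there. It is in the window of AT2G41380, beyond the stronger upstream site.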

How the results depend on the processing

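With 3 libraries, no test between the genes could pass a threshold of 0.05, so only directions and sizes can be compared. The difference in fold enrichment between *BOP1* and *BOP2* ranged from -0.146 to 0.296 when each ATH1-GFP library was left out, and that in −log10 q from -0.998 (without replicate 3) to 5.89, so their signs depended on single libraries, and the cause was not tested. On the log2 scale, as percentiles, with the strongest peak of the window or over the genome-wide background, the difference in fold enrichment stayed positive. That in pileup stayed positive in every alternative run (5 to 16.5 tags without a library). The gaps of the *BOP* pair to the KNOX genes (-0.416 to -0.336 without a library) and to the boundary genes (-0.809 to -0.482) kept their sign in every alternative run. The site of *BOP1* was 345 to 395 nt long and that of *BOP2* 366 to 399 nt without a library, and neither moved at a false-discovery rate below 0.0001 or with an overlap of 50% of the shorter peak. The difference in extra peaks was 0 to 0.5 without a library, with 0 when ATH1-GFP replicate 1 was left out, since the single extra peak came from it. It was 0.333 with −log10 q above 3 or windows widened by 1000 nt, and 1.33 and 3 with windows widened by 3000 and 10000 nt. These widths were added after the values were seen and take in free regions, which are absent from the wild type by definition, so their counts carry no test. Taking libraries of equal replicate number as pairs (replicate block), the difference in extra peaks was 0.333 (exact sign-flip permutation *P* = 1). The single extra peak fixed this *P* in advance too. With so few peaks in the windows, pairing of the numbers could not be checked there. A missing peak is least informative in wild-type replicate 1, with 3450182 tags kept.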
